A study of Mus musculus with 18 samples.

Results

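The cytosolic ribosomal proteins are the protein subunits of the ribosomes that translate nuclear-encoded messages. Their genes were taken from the combined count table by symbol, as those starting with Rpl or Rps followed by a digit, together with Rpsa, Rplp0, Rplp1 and Rplp2, leaving out pseudogene symbols ending in -ps and the S6 kinases. The rule found 93 of 56883 rows. Of these, 43 encode large subunit proteins, 31 small subunit proteins and 3 the acidic stalk proteins, and these 77 are called core genes here. A further 15 are paralogs or retrogenes, and Rps19bp1, which the symbol rule also takes, encodes a ribosomal protein binding factor rather than a ribosomal protein.

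The series profiled total RNA from cells of mouse frontal cortex, sorted after repeated dosing with an antipsychotic drug. Mice were given clozapine at 10 mg/kg, risperidone at 1 mg/kg or vehicle by intraperitoneal injection once a day for 14 days, from postnatal day 60 to 74, and were killed on postnatal day 75. All groups were of the strain B6;D2-Tg(S100B-EGFP)1Wjt/J and so carried an S100B-EGFP transgene, vehicle mice included, and the labels name the animals both as adult males and as males and females. Cortices of 5 animals were pooled, and each of the 6 pools, 2 per treatment with 1 in each labelled batch, was passed through a sequence of antibody-coated dishes that gave a CD45 microglia fraction, a HepaCAM astrocyte fraction and a Thy1 neuron fraction after endothelial and oligodendrocyte cells had been removed. Each of the 9 combinations of fraction and treatment therefore had 2 libraries, 18 in all. The p-values of drug tests measure the spread between pools, the batch difference included. Those of fraction tests, which take the pool as a block, measure the spread left within pools.

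Every cell builds ribosomes from these proteins together with ribosomal RNA, and the genes are among the most abundantly transcribed. Their messages begin with a run of pyrimidines, the terminal oligopyrimidine (TOP) tract, through which mTORC1 signalling sets how well they are translated. Many of their promoters are known to bind ETS-family factors such as GABP close to the start site. Cell types can also differ in single ribosomal proteins and in paralogs that replace them.

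The sequences around the transcription start are shown for the members on which the fraction comparisons turn. They were read from RefSeq promoters on GRCm38.p6, an older build than the GRCm39 annotation of the counts, and 68 of the 93 members had an entry. Each is the sense strand from 60 bases before the start to 30 after it, and capitals mark the letters CCGGAA or their reverse complement TTCCGG, the core that ETS factors read, and CTCTTT, a TOP-like run. Neither motif overlaps the other. The windows lie at chr10:80292371-80292460 (Rps15), chr15:5116553-5116642 (Rpl37), chr9:120127706-120127795 (Rpsa), chr11:68901506-68901595 (Rpl26) and chrX:74270756-74270845 (Rpl10) on the plus strand, and at chr17:46782627-46782716 (Rpl7l1) on the minus strand. Rps15, Rpl37, Rpsa and Rpl26 were lower in microglia than in neurons, and Rpl10 and Rpl7l1 were higher in microglia.
Rps15: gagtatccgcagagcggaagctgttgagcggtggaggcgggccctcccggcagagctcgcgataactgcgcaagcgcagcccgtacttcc
Rpl37: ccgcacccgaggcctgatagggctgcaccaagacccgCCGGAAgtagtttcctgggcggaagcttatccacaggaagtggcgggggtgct
Rpsa: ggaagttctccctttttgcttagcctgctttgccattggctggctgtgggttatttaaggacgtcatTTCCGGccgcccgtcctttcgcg
Rpl26: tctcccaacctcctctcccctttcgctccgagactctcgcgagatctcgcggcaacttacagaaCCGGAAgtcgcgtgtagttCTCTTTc
Rpl10: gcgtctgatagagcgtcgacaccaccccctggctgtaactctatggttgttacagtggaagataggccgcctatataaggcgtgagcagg
Rpl7l1: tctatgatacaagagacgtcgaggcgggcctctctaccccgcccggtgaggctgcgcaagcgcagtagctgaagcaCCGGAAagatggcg
Over the full windows of 250 bases before to 50 after the start, and counting both strands, CCGGAA stood in 52.9% of the 68 members and in 16.7% of 27025 genes with a promoter entry. CTCTTT, also on both strands, stood in 41.2% of the members and in 25.6% of genes. As it was counted on either strand anywhere in the window, this share does not measure TOP tracts at the message start. The printed windows of Rps15 and Rpl10 hold neither, and that of Rpl26 holds both.

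Library totals ran from 4714468 to 13391163 counts, and 32283 to 48935 genes had a count in a library. The labelled cell types were checked against marker lists. All 19 tested microglia markers were higher in the microglia fraction than in either other fraction, all 20 astrocyte markers were lower in microglia than in astrocytes, and all 20 neuron markers were lower in microglia and in astrocytes than in neurons (edgeR quasi-likelihood test, Benjamini-Hochberg adjusted p under 0.05). The fractions were mixed all the same. Summed oligodendrocyte markers reached 1107 to 3941 CPM (counts per 1000000 counts of a library) in microglia, 12362 to 37982 CPM in astrocyte and 6242 to 29086 CPM in neuron libraries, although that type had been depleted. Summed neuron markers reached 2580 to 9103 CPM in microglia libraries. In neuron libraries they reached 10911 to 19772 CPM. Summed astrocyte markers were 17065 to 25978 CPM in astrocyte and 5127 to 9585 CPM in neuron libraries. In each batch 1 astrocyte and neuron library the oligodendrocyte sum was above that of the fraction's own markers, and in each batch 2 library below it. The lists hold different genes, so their sums do not give shares of cells. In bulk fractions of this kind, fewer cells of a type and less RNA per cell cannot be told apart.

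The 93 members together took 0.955% to 2.25% of a library's counts. In microglia the shares were 1.51% and 1.62% under clozapine in batches 2 and 1, 1.36% and 1.63% under risperidone, and 0.966% and 1.84% under vehicle. In astrocytes they were 1.15% and 2.05% under clozapine, 1.03% and 2.25% under risperidone, and 0.955% and 1.69% under vehicle, again with batch 2 given first. In neurons they were 1.63% and 2.22% under clozapine, 1.18% and 1.34% under risperidone, and 1.20% and 2.02% under vehicle. The batch 2 pool had the lower share in 9 of 9 combinations of fraction and treatment, whereas the 3 fractions overlapped.

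**Figure D1:**
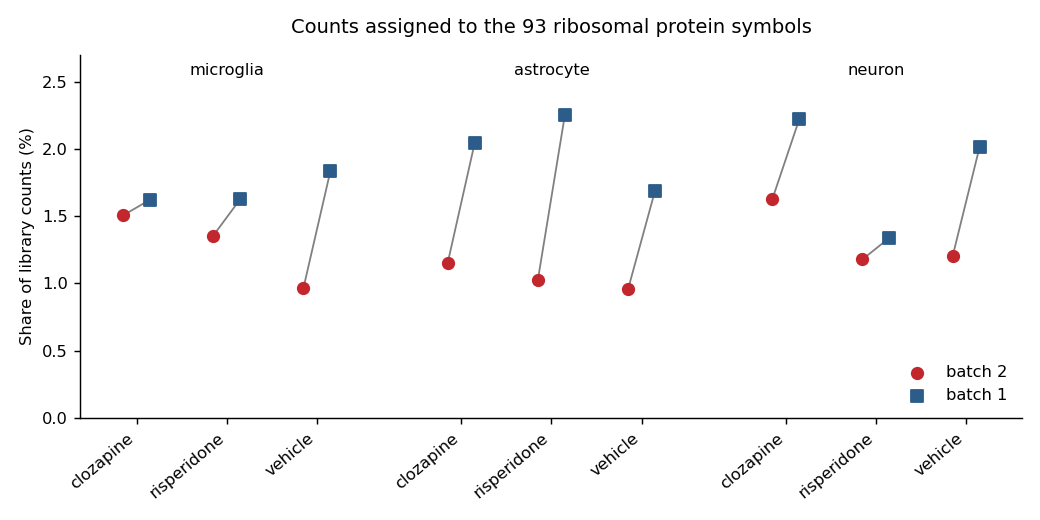
Percent of each library's counts in the 93 ribosomal protein symbols (vertical axis), by fraction and treatment, with 1 point per library and batches marked apart. The points run from 0.955% to 2.25%, and the batch 2 point lies under its batch 1 partner in all 9 pairs.

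The ratio of summed small to summed large subunit counts stayed between 0.526 and 0.676 over the 18 libraries. Within a library the genes differed widely. Per length, as CPM per 1000 bases of exon (RPKM), the core genes had a median of the mean level over libraries of 72.7 RPKM, with a range of 4.58 to 902 RPKM. The highest were Rps29 at 902 RPKM, Rplp1 at 891 RPKM, Rpl36 at 488 RPKM, Rpl24 at 402 RPKM and Rpl32 at 391 RPKM. The range and order depend on the exon bases annotated for a gene, which can exceed its message. Rpl36, with 383 bases, averaged 187 CPM, while Rps24, with 6256 bases, averaged 475 CPM but 75.9 RPKM. A gene that overlaps Rpl24 held over 50% of its count, so its own level is uncertain. Among the core examples named in every comparison, the stalk scaffold Rplp0 averaged 81.9 ± 30.3 RPKM, the stalk protein Rplp2 59.0 ± 21.6 RPKM, the S6 kinase substrate Rps6 76.0 ± 29.9 RPKM, and Rpsa, also known as the laminin receptor, 63.6 ± 29.5 RPKM (SD, n = 18). Rpl3 of the peptidyl transferase centre averaged 115 ± 25.3 RPKM and the ubiquitin fusion Rps27a 53.1 ± 16.4 RPKM (SD, n = 18).

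The lowest members were the testis paralog Rpl10l at 0.772 RPKM, the testis paralog Rpl39l at 1.05 RPKM, the muscle paralog Rpl3l at 1.71 RPKM, the core gene Rpl29 at 4.58 RPKM and the retrogene Rps3a2 at 5.93 RPKM. Reads that map to more than 1 place were not counted, so genes with near-identical copies elsewhere are undercounted to an unknown degree. The core genes varied over the 18 libraries about as much as other genes of their level: the median SD of log2 CPM was 0.65 for core genes and 0.65 for 3563 genes of like mean level, members included. Rps18, Rps13, Rpl7a, Rps19bp1 and Rpl6 varied least, with SDs of 0.41 to 0.46, and Rpl10l, Rpl39l, Rpl35a, Rpl37 and Rps15 varied most, with SDs of 0.91 to 1.24. A gene that overlaps Rps18 held 184% of its count, so its own level and SD are uncertain.

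Between fractions, few ribosomal protein genes separated microglia from astrocytes. Rpl10, Rpl10a and Rpl7l1 were higher in microglia, and no member passed the test in the other direction. These were 3 of 93 members, where 14.5% of 37273 genes passed in either direction 6.55% as higher and 7.96% as lower (edgeR quasi-likelihood test with the pool as a block, adjusted over all genes, as for all fraction results). The members' median log2 difference was −0.08 and that of all genes 0.01. Among 3500 other genes of like level (mean log2 CPM between the 10th and 90th percentile of the core genes), 14.2% were called higher and 24.1% lower.

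Rpl10 joins the large subunit late in its assembly and is needed for the subunits to come together. It lies on chrX:73314418-73316741, plus strand, in GRCm39. Its CPM in microglia had a lowest, median and highest value of 319, 465 and 553, against 90.8, 204 and 232 in astrocytes and 124, 173 and 190 in neurons. No microglia library overlapped either other fraction, and microglia were higher in 6 of 6 pools. The log2 difference from astrocytes was 1.17 ± 0.29 (SE, adjusted p = 0.00493) and that from neurons 0.88 ± 0.28 (adjusted p = 0.015).

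Rpl10a forms the L1 stalk, which guides spent tRNA out of the ribosome, and lies on chr17:28547445-28550007, plus strand. Its CPM had a lowest, median and highest value of 90.4, 143 and 155 in microglia, 55.2, 69.5 and 78.1 in astrocytes and 43.4, 68.0 and 77.4 in neurons. Here too the microglia libraries lay above all others. The log2 difference from astrocytes was 0.88 ± 0.23 (SE, adjusted p = 0.00716). Rpl7l1 is a paralog of Rpl7 with a part in large subunit assembly, on chr17:47084833-47093598, minus strand. Its CPM had a lowest, median and highest value of 38.4, 55.6 and 61.3 in microglia, 19.8, 24.4 and 28.7 in astrocytes and 14.1, 22.1 and 27.8 in neurons. Microglia again did not overlap the others, and the log2 difference was 0.99 ± 0.24 from astrocytes (SE, adjusted p = 0.00464) and 0.66 ± 0.24 from neurons (adjusted p = 0.0307).

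The calls of Rpl10, Rpl10a and Rpl7l1 against astrocytes stood under each of 7 other choices of scaling, filter, tool or count table and with each of the 18 libraries left out in turn, while with the 6 vehicle libraries of these fractions alone no member was called. Without the astrocyte risperidone replicate 1 library 10 members were called, all higher in microglia, and without the neuron risperidone replicate 1 library 5. Next in size on the higher side, none called, were Rpl39l (log2 difference 1.97, adjusted p = 0.302) and Rpl18 (0.61, adjusted p = 0.127), with Rps13 and Rplp0 behind. On the other side stood Rps12l1, which another gene overlaps, at −0.81 (adjusted p = 0.144), Rpsa at −0.65 (adjusted p = 0.248), Rpl31 at −0.65, Rpl23a at −0.64 and Rpl26 at −0.63.

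**Figure D2:**
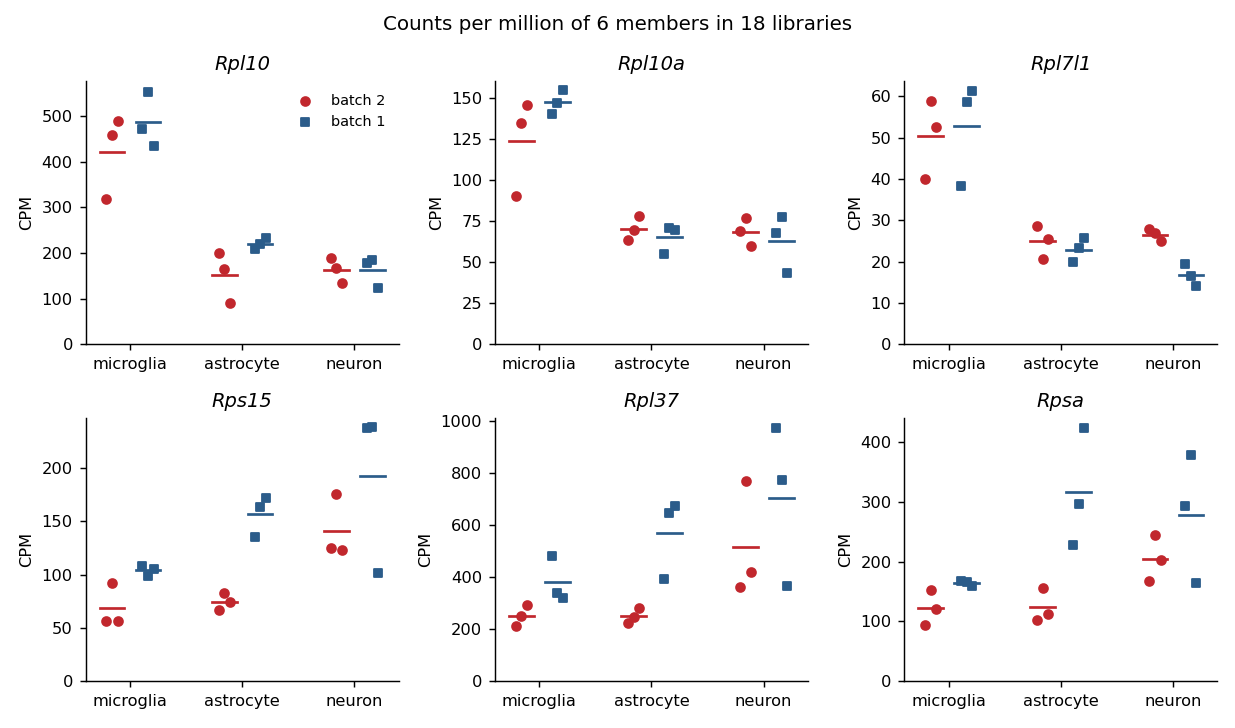
CPM of 6 members in each of the 18 libraries, by fraction, with batches marked. Rpl10, Rpl10a and Rpl7l1 sit higher in the microglia libraries than in any other, whereas Rps15, Rpl37 and Rpsa reach their highest medians in neurons with overlap between the fractions.

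Microglia and neurons differed in more members. Of 93, 33 were lower in microglia and 3 higher (36 called, where 44.1% of all genes passed; 19.5% as lower and 24.6% as higher). The members' median log2 difference was −0.56, while that of all genes was 0.63. Most of the 37273 genes are far less abundant than these, and among the 3500 other genes of like level the median was −0.95 and 65.4% were called lower. At an unadjusted p under 0.05 stood 54 members, against 53.8% of all genes. The members' share of lower calls was above the background of all genes but under that of abundant genes.

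Rps15, which contacts tRNA in the head of the small subunit, had the smallest p. It lies on chr10:80128287-80129948, plus strand. Its CPM had a lowest, median and highest value of 56.0, 95.8 and 108 in microglia, 67.0, 109 and 172 in astrocytes and 102, 151 and 238 in neurons. Microglia fell below neurons in 5 of 6 pools with a narrow overlap, and the log2 difference was −1.57 ± 0.29 (SE, adjusted p = 0.00012). Rpl37, of the large subunit, on chr15:5146127-5148622, plus strand, had a lowest, median and highest CPM of 211, 307 and 480 in microglia, 225, 336 and 672 in astrocytes and 360, 596 and 976 in neurons. It was lower in microglia than in neurons in 6 of 6 pools, at a log2 difference of −1.53 ± 0.33 (SE, adjusted p = 0.000799).

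Rpl31 sits near the exit of the peptide tunnel. Its CPM had a lowest, median and highest value of 147, 224 and 240 in microglia, 164, 311 and 450 in astrocytes and 264, 403 and 473 in neurons. Microglia and neurons did not overlap, and the log2 difference was −1.45 ± 0.28 (SE, adjusted p = 0.000222). Rpsa, on chr9:119956755-119961435, plus strand, had a lowest, median and highest CPM of 93.4, 156 and 167 in microglia, 103, 192 and 425 in astrocytes and 165, 224 and 378 in neurons. It was lower in microglia in 6 of 6 pools, and its log2 difference from neurons was −1.37 ± 0.32 (SE, adjusted p = 0.00169).

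Among the others, Rpl38, known for its part in translation of Hox messages, was lower in microglia than in neurons at a log2 difference of −1.30 (adjusted p = 0.000386), as were Rps21 at −1.22 (adjusted p = 0.000361) and Rpl26, which regulates p53 translation, at −1.28 (adjusted p = 0.00227). Rplp1 of the stalk was at −1.01 (adjusted p = 0.0173) and Rpl3 at −0.81 (adjusted p = 0.0244). The stalk partner Rplp2 was at −0.04, Rps27a at −0.40, Rps6 at −0.65 (adjusted p = 0.0573) and Rplp0 at 0.54 (adjusted p = 0.0583), and these 4 did not pass. The third member called higher, Rpl39l, was at 2.65 ± 1.04 (adjusted p = 0.0426), at levels of 1.08 to 3.03 CPM in microglia against 0 to 0.879 CPM in neurons.

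The split between higher and lower depended on how libraries were scaled. With library totals alone in place of TMM factors, 16 members were called higher and 14 lower, with a median of 0.02, and the median of all genes moved to 1.15. Rpl10 and Rpl7l1 then stayed called higher, and Rps15, Rpl37, Rpl31, Rpsa, Rpl38 and Rps21 stayed called lower with log2 differences between −0.96 and −0.66. DESeq2 gave 9 higher and 33 lower, and a filter of 10 counts in every library 10 higher and 18 lower. Of the 33 lower calls, 14 stood under all of those 7 settings, and 18 with each library left out. Of the 3 higher calls none stood with each library left out. Rpl10 was lost without microglia risperidone replicate 2, Rpl7l1 without neuron clozapine replicate 1 or neuron risperidone replicate 1, and Rpl39l without any 1 of 7 libraries, namely microglia clozapine replicate 2, either microglia risperidone library, microglia vehicle replicate 1, either neuron clozapine library and neuron risperidone replicate 2. Leaving out the microglia clozapine replicate 1 library left 24 members called and leaving out the neuron risperidone replicate 2 library 23.

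Astrocytes and neurons differed in 12 members, 1 higher and 11 lower in astrocytes (21.6% of all genes called; 11.5% as higher and 10.1% as lower). Rps27l, a p53-inducible paralog of Rps27, was the higher one. Its CPM had a lowest, median and highest value of 7.60, 8.37 and 11.1 in astrocytes and 2.12, 3.66 and 6.40 in neurons, without overlap, and the log2 difference was 0.85 ± 0.26 (SE, adjusted p = 0.0222). The lower ones were Rps15 at −1.04 (adjusted p = 0.0153), Rpl37 at −1.06 (adjusted p = 0.0321) and Rplp1 at −1.05 (adjusted p = 0.0308), and also Rps14, Rpl9, Rpl12, Rps21, Rpl17, Rpl31, Rps2 and Rpl35rt at −0.81 to −0.72. The members' median was −0.48 and that of all genes 0.46, while the like-level genes had a median of −0.52 and 42.4% of them were called lower. The members' share of lower calls was near that of all genes and under that of like-level genes.

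The calls were not stable. Of the 11 lower calls, 1 stood under all 7 settings and none with each library left out. The higher call of Rps27l stood under all 7 settings but not with each library left out. With library totals alone, where the median of all genes was 0.94, 3 members were called higher and 1 lower, and without the pool block 1 member was called. Leaving out 1 library moved the number of calls to 60 (astrocyte risperidone replicate 1) or 46 (neuron risperidone replicate 1). It fell to 0 without replicate 2 of the astrocyte vehicle, clozapine or risperidone libraries or of the neuron clozapine or risperidone libraries, and lay between 1 and 7 without any 1 of the microglia clozapine and vehicle libraries, microglia risperidone replicate 1, replicate 1 of the astrocyte clozapine and vehicle libraries, neuron clozapine replicate 1 and the neuron vehicle libraries. Without microglia risperidone replicate 2 it was 9.

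The fraction differences changed with batch, as fits to the 3 pools of each batch showed. Between microglia and astrocytes, batch 2 had 11 members called higher and none lower, with a median of 0.44 (8.83% of genes called; 5.56% as higher), whereas batch 1 had 5 called higher and 29 lower, with a median of −0.43 (22.2% called; 8.74% as higher and 13.5% as lower). Of 92 members tested in both, 67 were higher in microglia in batch 2 and lower in batch 1. Rpl10, Rpl10a, Rpl7l1 and Rps13 were called higher in both batches.

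Between microglia and neurons the members' median was negative in both batches. Batch 2 had 2 members called higher and 45 lower, with a median of −0.61 (47.1% of genes called, 30.6% as higher and 16.5% as lower). Batch 1 had 6 higher and 21 lower, with a median of −0.38 (25.5% called, 11% as higher and 14.6% as lower). The batch 1 risperidone pool stood apart, with a core median of 0.09 and 42 of 77 core genes higher in microglia. With library totals the core median of the risperidone pools was 0.36 in batch 2 and 0.37 in batch 1. Rpl10 was called higher and 19 members lower in both batches, among them Rps15, Rpl37, Rpl31, Rpsa, Rpl38, Rps21, Rpl26 and Rpl9. Between astrocytes and neurons, batch 2 had 3 members called higher and 75 lower, with a median of −1.06 (47.7% of genes called; 31% as higher and 16.8% as lower). Batch 1 had none, with a median of 0.08 (4.51% called). The batch 1 pools were opposed here: the core median was −0.47 in the clozapine and −0.30 in the vehicle pool. In the risperidone pool it was 1.12, with all 77 core genes higher in astrocytes. The shares of like-level genes were not taken for the fits to single batches. With all pools, 65.4% of like-level genes were called lower between microglia and neurons. Between astrocytes and neurons 42.4% were, and between microglia and astrocytes 24.1%. The single-batch counts therefore cannot show whether the members differed from other abundant genes.

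**Figure D3:**
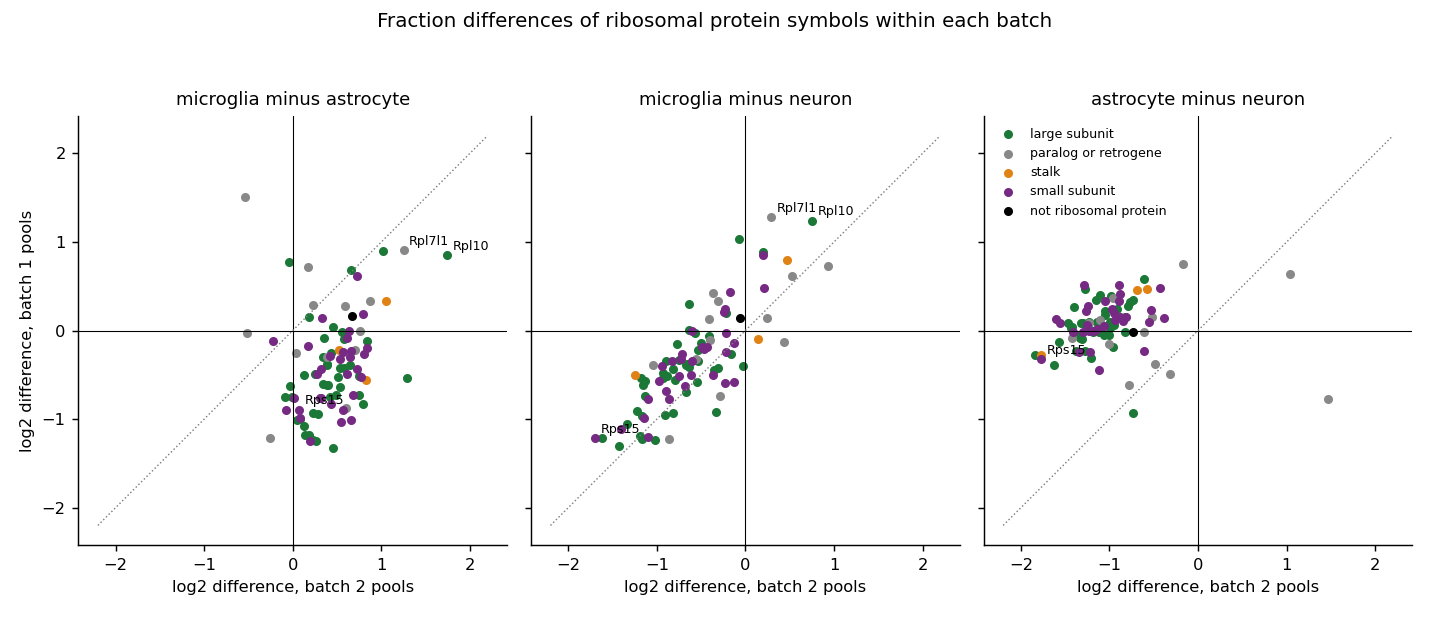
Log2 difference of the members between fractions in the batch 2 pools set against that in the batch 1 pools, 1 panel per pair of fractions. Rpl10l and Rpl39l are not drawn. Rpl10 lies on the high side in both batches in the panels with microglia. Of 92 members compared between microglia and astrocytes, 67 were above 0 in batch 2 and under 0 in batch 1.

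The 8 pairs of a core gene and its paralog were looked at by name. The table held both genes of 7 pairs and none for Rps4l. Rpl22l1, a paralog that also binds pre-mRNA, had a median of 54.9 CPM in microglia, 32.5 CPM in astrocytes and 37.9 CPM in neurons, and its parent Rpl22 101, 103 and 91.1 CPM in the same order. The log2 difference of Rpl22l1 between microglia and astrocytes was 0.51 ± 0.27 (SE, adjusted p = 0.285), so neither gene separated them beyond the spread. Rpl36al was called in no fraction comparison, and a gene that overlaps it held over 50% of its count. Rpl10l had no count in 5 of 6 neuron libraries.

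The ribosomal protein genes differed most between batches in astrocytes. There, 69 of 91 tested members were lower in batch 2 than in batch 1 and none was called higher, where 5.71% of all genes were called, 3.6% as lower (edgeR quasi-likelihood test with treatment as a term). Among the like-level genes 10.0% were called lower. The members' median log2 difference was −1.25 and that of all genes 0.14. All 77 core genes had negative differences, of which 37 of 43 large subunit, 28 of 31 small subunit and 2 of 3 stalk genes passed.

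Rps3a1, a small subunit protein near the message exit, on chr3:86045247-86050009, minus strand, had 215, 171 and 163 CPM in the batch 2 astrocyte libraries under clozapine, risperidone and vehicle, against 492, 653 and 425 CPM in batch 1. The batches did not overlap, and the log2 difference was −1.95 ± 0.32 (SE, adjusted p = 9.09e-05). Rpl21 of the large subunit, on chr5:146769700-146773842, plus strand, had 82.1, 60.0 and 69.9 CPM in batch 2 and 157, 209 and 199 CPM in batch 1, at a log2 difference of −1.86 ± 0.29 (SE, adjusted p = 4.75e-05). Rpsa had 155, 112 and 103 CPM in batch 2 and 297, 425 and 228 CPM in batch 1, at −1.78 ± 0.31 (SE, adjusted p = 0.000192). The other leading genes were Rpl23a, Rpl36a, Rps12, Rps6, Rpl26, Rps3 and Rpl13a, at −1.90 to −1.62. Overlapping genes held over 50% of the counts of Rpl23a and Rpl13a, so their own levels are uncertain.

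Not all members followed. Rpl7l1 was at −0.34 (adjusted p = 0.453), Rps27l at −0.20, Rpl29 at −0.23 and Rplp0 at −0.78 (adjusted p = 0.0713), while the muscle paralog Rpl3l was at 1.66 (adjusted p = 0.119). The count rested on few libraries: 1 member stayed called without the astrocyte vehicle replicate 1 library, 3 without vehicle replicate 2, 35 without risperidone replicate 1 and 31 without risperidone replicate 2. It was 51 with library totals alone, where the median of all genes was 0.59, and 51 of the 69 calls stood under all 7 settings and 1 with each library left out.

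In microglia 4 members were lower in batch 2 (4.25% of genes called; 1.41% as lower), with a median over members of −0.43. Among the like-level genes 3.17% were called lower and 14.3% higher, so the members' share of lower calls was near theirs. Rps27 had 115, 129 and 77.6 CPM in batch 2 under clozapine, risperidone and vehicle, against 151, 211 and 255 CPM in batch 1, at a log2 difference of −0.93 ± 0.23 (SE, adjusted p = 0.0173). Its retrogene Rps27rt, from which it may not be told apart read by read, was at −0.88 (adjusted p = 0.0122), Rplp1 at −0.79 (adjusted p = 0.0278) and Rpl18 at −0.67 (adjusted p = 0.0426). The number called was 21 without clozapine replicate 1, 17 without clozapine replicate 2, 7 without either risperidone library, 1 (called higher) without vehicle replicate 1 and 0 without vehicle replicate 2.

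In neurons no member passed (0.334% of genes called; 13 members at an unadjusted p under 0.05, against 24.7% of genes, and up to 8 called by another setting), with a median of −0.27. Leaving out clozapine replicate 1 or replicate 2 gave 4 calls, and leaving out risperidone replicate 2 gave 2. The largest were Rpl7l1 at 0.87 (adjusted p = 0.0689) and Rps21 at −0.88 (adjusted p = 0.11). Over all 3 fractions together, with a term for each group, none of 93 passed (0.123% of genes called), although 65 members had an unadjusted p under 0.05, against 7.84% of genes, and DESeq2 called 44. Without either neuron risperidone library 2 passed.

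The batch differences themselves differed between fractions. The drop was larger in astrocytes than in neurons for 64 members (15.7% of genes called in that test of the difference, 8.51% as lower), with a median of −1.18, led by Rpl23a at −1.66 ± 0.35 (SE, adjusted p = 0.00687). Of the like-level genes 42.2% were called lower there, with a median of −0.91. The count fell to 2 and 1 without the astrocyte risperidone replicate 1 and replicate 2 libraries, to 4 without either neuron risperidone library, and to 42 and 28 without astrocyte vehicle replicate 1 and replicate 2. With library totals alone it was 2 lower and 1 higher.

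For 13 members the batch difference was higher in microglia than in astrocytes (4.82% of genes called; 3.68% as higher), led by Rpl21 at 1.72 ± 0.36 (SE, adjusted p = 0.00655), and with the replicate block for 19. Among the like-level genes 18.0% were called higher. The number was 1 and 2 without the astrocyte risperidone replicate 1 and replicate 2 libraries, 4 and 6 without microglia clozapine replicate 1 and replicate 2, and 8 without either microglia risperidone library. It was 35 without either astrocyte clozapine library, 34 without either neuron clozapine library, 24 and 23 without neuron risperidone replicate 1 and replicate 2, 22 without microglia vehicle replicate 1 and 21 without either neuron vehicle library. None differed between microglia and neurons (0.636% of genes called), or 4 without a neuron clozapine library.

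**Figure D4:**
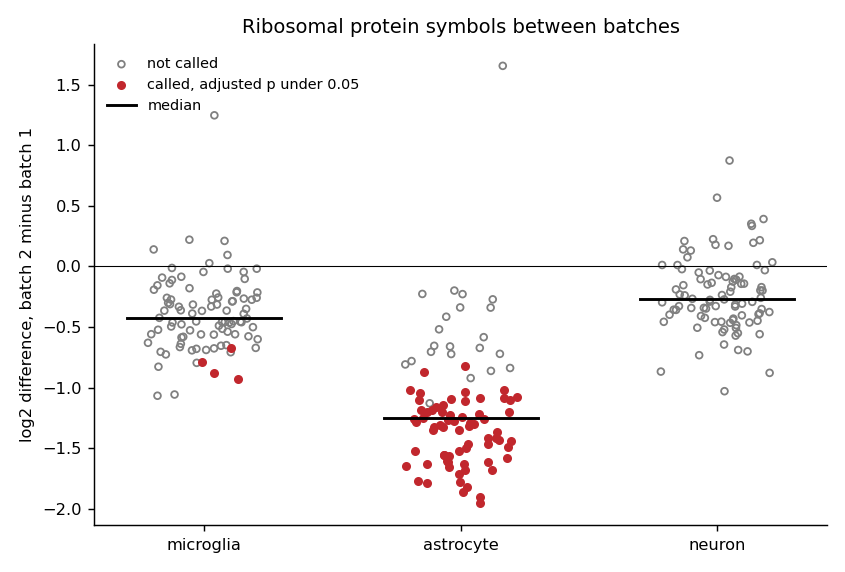
Log2 difference of batch 2 minus batch 1 for each member, by fraction, with members that passed the test marked. In astrocytes 69 of 91 members were called lower with a median of −1.25, whereas in microglia 4 were called and in neurons none.

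Counted without any model, 45 of 93 members in microglia, 67 in astrocytes and 21 in neurons had every batch 2 library under every batch 1 library in CPM, against 7.73%, 3.84% and 18.5% of all genes. In 31 of 93 members the batch 2 library was the lower in all 9 combinations, against 0.537% of all genes. These counts rest on library totals. With TMM scaling the neuron risperidone pair went the other way, with a core median of 0.44 and 65 of 77 core genes higher in batch 2, against −0.24 with library totals. The TMM core medians of the other pairs were negative, from −1.70 to −0.07.

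Other quantities moved with batch. In astrocytes, summed oligodendrocyte markers were 12362 to 16069 CPM in batch 2 and 27887 to 37982 CPM in batch 1, the summed dissociation-response genes 3163 to 3766 CPM in batch 2 and 1052 to 1601 CPM in batch 1, and the number of genes detected 46221 to 48157 in batch 2 and 37949 to 42507 in batch 1. In the same astrocyte libraries, oligodendrocyte precursor markers were 529 to 573 CPM in batch 2 and 222 to 275 CPM in batch 1, leukocyte markers 43.2 to 87.5 CPM in batch 2 and 14.5 to 29.7 CPM in batch 1, and nuclear-retained RNAs 18489 to 21826 CPM in batch 2 and 22322 to 27417 CPM in batch 1. In neurons, oligodendrocyte markers were 6242 to 6972 CPM in batch 2 and 18328 to 29086 CPM in batch 1, and nuclear-retained RNAs 10328 to 13327 CPM in batch 2 and 18336 to 28660 CPM in batch 1. Neuron markers there were 17156 to 19772 CPM in batch 2 and 10911 to 14465 CPM in batch 1. In microglia, neuron markers were 4866 to 9103 CPM in batch 2 and 2580 to 3281 CPM in batch 1, and astrocyte markers 2944 to 3699 CPM in batch 2 and 4215 to 7284 CPM in batch 1. Erythrocyte markers in microglia were 379 to 802 CPM in batch 2 and 1679 to 3038 CPM in batch 1, and leukocyte markers 66.1 to 111 CPM in batch 2 and 157 to 315 CPM in batch 1. The dissociation-response genes in microglia were 4308 to 4955 CPM in batch 2 and 6160 to 10722 CPM in batch 1, the opposite order to astrocytes. Their part in the results was not tested.

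The astrocyte batch difference was also set against the exon bases annotated for each gene, which are not the length of 1 message. Among genes above the 10th percentile of the core genes' mean level, 38 other genes with up to 1000 bases of exon had a median astrocyte batch difference of −0.96, against −1.54 for the 10 core genes of that length. Between 1000 and 2000 bases the medians were −0.47 for 123 other genes and −1.30 for 29 core genes, between 2000 and 4000 bases −0.32 for 512 other and −1.23 for 25 core genes, and over 4000 bases −0.39 for 2808 other and −1.47 for 5 core genes. The core medians ran from −1.54 to −1.23 over these classes and those of the other genes from −0.96 to −0.32. Because annotated exon bases can exceed the message, the classes do not sort the core genes by message length, and a part of length was not tested. In neurons the 38 short other genes had a median of −0.01 and the 10 short core genes one of −0.23.

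Other parts of the translation machinery were set beside the core genes. In the astrocyte batch comparison, the ubiquitin-like fusion Fau was lower at −1.04 (adjusted p = 0.0396) and the ribosome-bound scaffold Rack1 was at −0.56 (adjusted p = 0.19). Of 15 other genes with TOP messages 6 were lower, with a median of −0.78, among them Tpt1 at −1.66 (adjusted p = 0.00164) and the elongation factor subunit Eef1b2 at −1.56 (adjusted p = 0.000163). Of 37 ribosome biogenesis genes 1 was lower, and of 49 mitochondrial ribosomal protein genes 3 were lower, with medians of −0.11 and −0.41. In that comparison 3.6% of all genes and 10.0% of like-level genes were called lower, and the difference between the lists was not tested.

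Between fractions, 14 of 37 ribosome biogenesis genes were higher in microglia than in astrocytes and none lower, with a median of 0.44, where 6.55% of all genes and 14.2% of like-level genes were called higher. Against neurons 12 were higher and 3 lower in microglia, where 24.6% of all genes were called higher and 19.5% lower, and 11.4% and 65.4% of like-level genes. Of 49 mitochondrial ribosomal protein genes 26 were lower in microglia than in neurons and 1 higher, with a median of −0.60, a share above that of all genes and under that of like-level genes, whose median was −0.95. Pabpc1, the poly(A) binding protein and a TOP message, was higher in microglia than in astrocytes by 1.26 (adjusted p = 0.00236) and than in neurons by 0.88 (adjusted p = 0.0154). The elongation factor Eef2 was lower in microglia than in neurons, at −1.22 (adjusted p = 0.00346).

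No ribosomal protein gene passed the test for either drug in any fraction at this depth and number of pools. Clozapine against vehicle, risperidone against vehicle and clozapine against risperidone were tested in each fraction with 2 pools a group, and all 9 comparisons called 0 members and 0.0% of all genes (edgeR quasi-likelihood test, 93 members tested in microglia and 91 in astrocytes and in neurons). At an unadjusted p under 0.05 stood 1 member in each of the 3 comparisons of clozapine with vehicle, against 3.16%, 1.26% and 2.81% of genes in microglia, astrocytes and neurons. For risperidone against vehicle these were 0, 0 and 5 members, against 4.29%, 0.645% and 0.801% of genes. For clozapine against risperidone they were 2 members in microglia and 0 in astrocytes, against 7.39% and 1.06% of genes. DESeq2 called 0 to 19 genes and the fit with batch as a block 0 to 15 genes in a comparison, with no member among them, and without a filter on low counts 1 member was called, in microglia between clozapine and risperidone.

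The errors of the drug differences were wide, and the core medians differed between batches. Under clozapine against vehicle the core median was 0.78 in batch 2 and −0.06 in batch 1 in microglia, 0.57 and 0.28 in astrocytes, and 0.43 and 0.49 in neurons. Under risperidone against vehicle it was 0.24 and −0.38 in microglia, 0.10 and 0.59 in astrocytes, and 0.04 and −0.73 in neurons. These medians rest on TMM scaling, and the 2 sets share the vehicle libraries. For Rps6 the log2 difference of clozapine from vehicle was 0.21 ± 0.35 in microglia, 0.0036 ± 0.74 in the astrocyte fraction and 0.65 ± 0.40 in the neuron fraction (SE), and for Rplp0 it was 0.32 ± 0.29, 0.21 ± 0.47 and −0.09 ± 0.33.

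By core median the 2 drugs stood furthest apart in neurons. All 77 core genes were higher under clozapine than under risperidone, with a median of 0.81 over core genes, and 32 of 91 members had an unadjusted p under 0.05, against 3.25% of all genes, yet none passed after adjustment. Rpl35, of the large subunit near the tunnel exit, had 205 and 294 CPM under clozapine in batches 2 and 1 against 105 and 108 CPM under risperidone, at a log2 difference of 1.42 ± 0.39 (SE, unadjusted p = 0.00395, adjusted p = 1.0). The clozapine and risperidone libraries did not overlap for Rpl35, and the core median was 0.39 in batch 2 and 1.22 in batch 1. With library totals in place of TMM factors the core median was 0.48 in batch 2 and 0.68 in batch 1.

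Single libraries carried other differences. Rpl29, a small and highly basic large subunit protein, was the member of lowest unadjusted p under clozapine in microglia and in neurons. It had 2.83 and 3.24 CPM under clozapine in microglia in batches 2 and 1, against 2.82 and 14.8 CPM under vehicle, and in neurons 3.44 and 3.20 CPM under clozapine, 3.92 and 2.30 CPM under risperidone and 3.25 and 20.8 CPM under vehicle. The vehicle batch 1 library alone stood apart in both. Rpl39 had 34.2 and 39.4 CPM under risperidone in neurons, against 44.8 and 123 CPM under vehicle, at −1.19 (unadjusted p = 0.0143). In astrocytes the retrogene Rpl6l was at 1.71 for clozapine against vehicle (unadjusted p = 0.0268, adjusted p = 1.0).

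**Figure D5:**
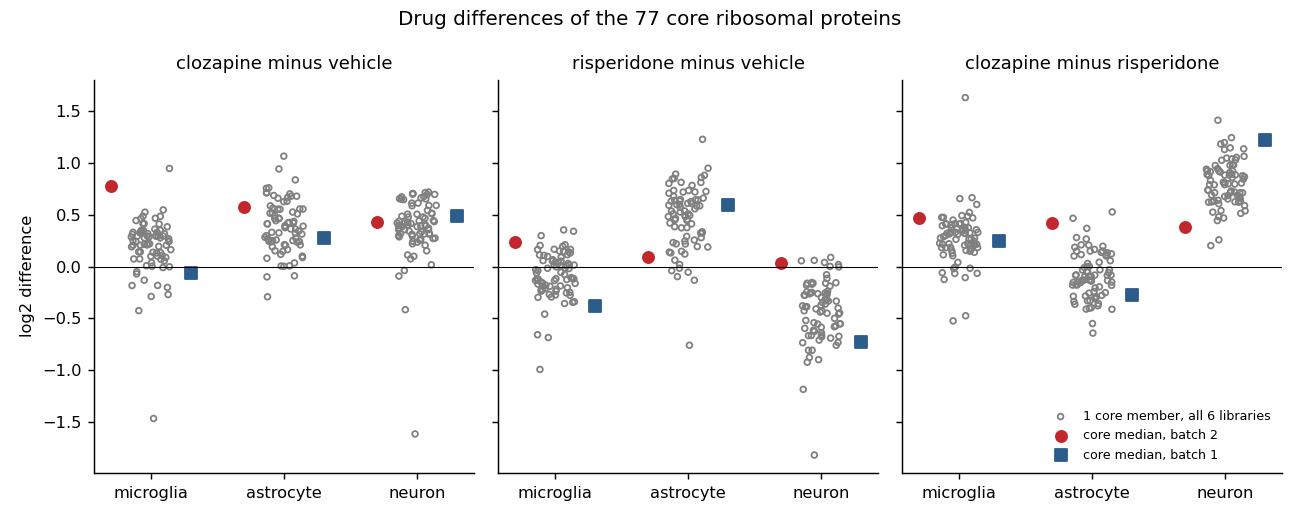
Log2 difference of each of the 77 core genes for clozapine minus vehicle, risperidone minus vehicle and clozapine minus risperidone, by fraction, with the core median of each batch marked. No member passed the test in any of the 9 comparisons, and the neuron values of clozapine minus risperidone lie above 0 for all 77 core genes.

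The drug differences did not differ detectably between fractions either. In all 6 tests of a difference of drug effects between 2 fractions, 0 members were called, and 1 gene was called in 1 of them (0.00268% of genes, risperidone in astrocytes against neurons).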

How the data were processed

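Sequencing reads were processed by the authors. Libraries were made with rRNA removal (QIAseq FastSelect) from 20 ng of total RNA, per the labels' protocols. The deposited values were raw counts per gene over exons, made with featureCounts 2.0.8 on paired reads without a strand option, with reads over several genes counted for each and multi-mapping reads not counted, on GRCm39, per the file headers. FastQC is named in the submitters' processing notes, and for the aligner the sources used here give no name. Reads of overlapping or antisense genes cannot be told apart. Of the members with a gene ID, 40 of 91 overlapped another gene, and for 8 the largest such gene held over 50% of the member's count.

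Counts were scaled by TMM and tested with edgeR 4.0.16 (quasi-likelihood, filterByExpr, R 4.3.3), adjusted over all genes tested, with calls at an adjusted p under 0.05. An error on a log2 difference is its size divided by the root of F. CPM and RPKM were computed from library totals and exon lengths. Fraction comparisons used all 18 libraries with the pool as a block, drug comparisons the 6 libraries of a fraction, and batch comparisons added treatment or group as terms. DESeq2 1.42.0, other scalings and filters, single batches and left-out libraries were alternatives, and the fits to single batches were chosen after seeing the data. The batch number comes from the labels, which call it a batch: over genes, same-batch libraries of a fraction deviated together (r of 0.0994 to 0.4468), and libraries of a pool did not always (−0.3885 to 0.1217). Members, gene lists and tests were chosen with earlier results of these data known.

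Genes named in the text were a fixed set of examples (Rplp0, Rplp1, Rplp2, Rpsa, Rps6, Rpl3, Rps27a) and paralog pairs, the called members of smallest p (up to 10 a direction, filled to 5 by the largest and smallest differences), and the extremes of level and of SD. Others, such as Rps13, Rpl31 by library and the unadjusted drug values, were chosen after their values were seen.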

Additional observations from a re-analysis of the deposited data

Results flagged for a closer look

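The difference between batches was itself different between fractions, as a test of the interaction of batch and fraction showed. For 64 members the batch 2 minus batch 1 difference was lower in astrocytes than in neurons, where 15.7% of all genes were called (8.51% as lower) and 42.2% of the like-level genes as lower. Of the 64, 1 stood under all 7 settings and 1 with each library left out. The examples of smallest p were Rpl23a at −1.66 ± 0.35 (edgeR quasi-likelihood test, adjusted p = 0.00687), Rps3a1 at −1.83, Rpl14 at −1.76 and Rpl21 at −1.59. Rps3a1 was at −1.95 in astrocytes and at −0.29 in neurons.

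For 13 members the difference was higher in microglia than in astrocytes, among them Rpl21 at 1.72 ± 0.36 (edgeR quasi-likelihood test, adjusted p = 0.00655), Rps3 at 1.59, Rpl5 at 1.56 and Rps27a at 1.34. These 13 were 14.0% of the members, under the 18.0% of like-level genes called higher in the same test and above the 3.68% of all genes. Of the 13, 5 stood under all 7 settings and 1 with each library left out, and the count fell to 1 without astrocyte risperidone replicate 1. Rpl21 was at −0.14 in microglia and at −1.86 in astrocytes.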

How the results depend on the processing

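The balance of higher and lower calls moved with scaling and batch, as given beside each comparison. Members called between microglia and astrocytes (3) numbered 6 with DESeq2, 6 with RLE scaling, 14 with at least 10 counts in every library, 9 with library totals alone, 11 and 34 in the batch 2 and batch 1 pools alone, and 0 with vehicle libraries only, which also gave 0 between microglia and neurons and 0 between astrocytes and neurons. Between astrocytes and neurons (12) they numbered 19 with DESeq2, 4 with library totals, 1 with no replicate block, and 78 and 0 in the batch 2 and batch 1 pools. Without a filter 1 member was called between clozapine and risperidone in microglia, and the replicate block added no drug call.

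For batch over all fractions (0) the number was 44 with DESeq2, 2 with RLE, 36 with the filter of 10 counts, 37 with library totals and 11 without a filter. In microglia (4) it was 11 with DESeq2, 12 with the filter of 10 counts, 14 with library totals and 13 without a filter, and in neurons (0) it was 2 with DESeq2, 8 with library totals and 2 without a filter. The batch difference between microglia and astrocytes (13) gave 7 with RLE, 7 with the filter of 10 counts, 5 with library totals, 29 without a filter and 19 with the replicate block. That between astrocytes and neurons (64) gave 35 with RLE, 1 with the filter of 10 counts, 3 with library totals and 66 with the replicate block. The cause was not tested.

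Leaving out 1 library at a time gave 3 to 10 members between microglia and astrocytes, 23 to 52 between microglia and neurons and 0 to 60 between astrocytes and neurons. For batch it gave 0 to 2 over all fractions, 0 to 21 in microglia, 1 to 78 in astrocytes and 0 to 4 in neurons. For the batch differences between fractions it gave 1 to 35 (microglia and astrocytes), 0 to 4 (microglia and neurons) and 1 to 75 (astrocytes and neurons). No drug comparison or drug difference between fractions called a member with a library left out. With 2 pools a group, drug differences well above the printed errors also went uncalled. Rpl35a, at 1.63 ± 0.60 (SE) for clozapine minus risperidone in microglia, was 1 such case. A fit that leaves 1 library in a group assumes that it varies like the others.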

Other observations

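A few members had 1 library far from the rest, chosen here after their values were seen. Rpl35a had 1095 CPM in the clozapine batch 2 microglia library, against 207 to 565 CPM in the other microglia libraries, and the log2 difference of clozapine from risperidone in microglia was 1.63 with no call after adjustment. Rpl39l had a count in all 6 microglia libraries, at 1.08 to 3.03 CPM, and no count in 2 of 6 astrocyte and 2 of 6 neuron libraries.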
